A study of Mus musculus with 6 samples.

Results

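Transcripts of the proteasome were counted in CD4+ T cells (helper T cells) of the mouse, 8 h after transfection with a synthetic miR-155 oligo and at hour 0. miR-155 is a microRNA that lymphocytes raise on activation. A gene was included when its mouse symbol began with Psm, followed by a letter from a to g and a digit, and 48 of the 13177 rows of the count table met that rule, 1 row for each gene. They comprised 8 genes of the outer ring of the core particle, 4 non-catalytic and 3 constitutive catalytic genes of its inner ring, 3 immunoproteasome genes, 6 ATPases, 3 other subunits of the base and 8 of the lid of the cap, 7 assembly chaperones, 4 activator genes and 2 genes that match the name pattern without encoding a subunit (Psmc3ip and Psme3ip1). Protein-coding symbols of the pattern without a row were Psmb11, the thymus-specific catalytic subunit, Psme2b, a close copy of Psme2, and Psmf1, an inhibitor, and these were not analysed here.

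The libraries were 3 from cells at 8 h after transfection and 3 controls labelled as hour 0, all of purified CD4+ T cells. The treatment label of the controls names the oligo as well, and no sample taken at 8 h without it was part of the design, so time and oligo cannot be told apart. The descriptions of the 8 h samples read CD5+ where their cell type label reads CD4+. The sources used here do not give strain, age or sex of the mice, or say if each replicate was its own animal or culture. All p-values therefore measure the spread between these libraries, which may be technical. The methods estimate the spread of a gene in part from other rows, so a p-value or SE does not reflect that gene's own spread alone.

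The proteasome is the cell's main protease for proteins tagged with ubiquitin. Its barrel-shaped core is a stack of rings of alpha and beta subunits, the active sites lie on certain beta subunits, and a cap of ATPases and lid subunits recognises, unfolds and feeds in the substrate. In lymphocytes, and in other cells exposed to interferon gamma, the inducible catalytic subunits Psmb8, Psmb9 and Psmb10 can take the place of Psmb5, Psmb6 and Psmb7, giving the immunoproteasome, whose products include peptides for presentation on class I molecules. Each subunit of a ring is present in equal copy number in the assembled particle.

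Depth ranged from 4564010 to 13675127 counts per library. Levels are given as CPM, counts scaled to the same total in each library, after TMM scaling of library size, a correction for differences in composition. Of the CD4 T cell markers, Cd3d, Cd3e, Cd3g, Cd5, Lck, Lat, Thy1 and Cd28 were counted in every library, whereas Cd4 itself had 5 to 9 counts in 8 h libraries and 6 to 10 in controls. Actb had 3 to 5 counts in 8 h libraries and 1 to 4 in controls, so whether a row holds ordinary counts for its gene is uncertain, and each value below carries that limit. Within a group the highest CPM of a tested row was 10.4 times the lowest in 8 h libraries and 9.84 times in controls (medians over the tested rows in which no library of the group was at 0). For the 40 tested proteasome genes those medians were 14.4 and 9.44.

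Over deposited totals, the 48 genes as a group took a larger share of the library at 8 h. In this share the 8 h libraries were close to each other. The 48 genes held 3.39%, 3.50% and 3.48% of all counts in 8 h libraries 1 to 3, against 1.58%, 1.68% and 1.10% in controls 1 to 3. The means were 3.46 ± 0.0586% at 8 h and 1.45 ± 0.310% in controls (SD, n = 3 each), a difference of 2.005 percentage points. Every 8 h library lay above every control, and leaving out any single library gave a difference between 1.828 and 2.117. The TMM factors of 8 h libraries 1 to 3 were 1.01, 0.986 and 1.13, so after TMM scaling these libraries lay less close to each other. No test was made of this sum over chosen genes, and in bulk RNA a change in the kinds of cells cannot be told apart from a change in RNA per cell.

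**Figure D1:**
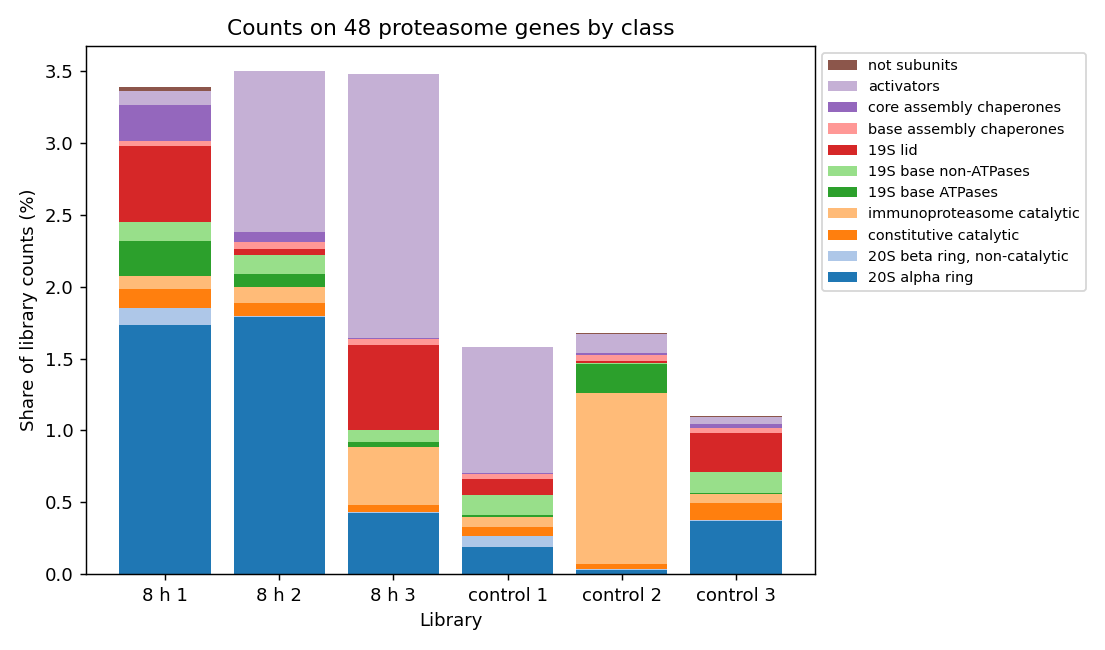
Share of all counts of a library (%, vertical axis) on 48 proteasome genes, stacked by class, for the 8 h libraries and the controls. The 8 h stacks reach 3.39% to 3.50% and the control stacks 1.10% to 1.68%, with different classes filling the stacks in different libraries.

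By class, the alpha genes of the outer ring held 1.73%, 1.79% and 0.424% of all counts at 8 h. In controls they held 0.186%, 0.029% and 0.367%, without overlap on deposited totals. The TMM factors were 1.126 for 8 h library 3 and 0.904 for control 3. After TMM scaling the alpha genes of control 3 lay above those of 8 h library 3, so there the groups overlapped. The activators held 0.0994%, 1.12% and 1.84% at 8 h and 0.87%, 0.132% and 0.0496% in controls, and the immunoproteasome genes 0.0936%, 0.11% and 0.402% at 8 h and 0.0711%, 1.19% and 0.0648% in controls. Both classes overlapped between groups. The base chaperones were the steadiest class as a sum, with 0.0418 ± 0.00568% at 8 h and 0.0347 ± 0.0041% in controls (SD, n = 3 each). Single genes of this class were not steady, as the highest CPM over all libraries was 83.8 times the lowest for Psmd5 and 200.5 times for Psmd10.

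The genes that made up the share differed from library to library. Per kilobase (kb) of transcript, which allows levels of genes to be compared, Psma4 led with 30.7% of the counts of the 48 genes in 8 h library 1, followed by Psma2 with 13.6% and Psmd14 with 13.4%. In 8 h library 2 Psma4 and Psme2 each held 36.9%. In 8 h library 3 Psme1 held 47.1% and Psme2 16.7%. The leading genes of the controls were Psme1 with 62.5% in control 1, Psmb8 with 45.9% and Psmb9 with 21.4% in control 2, and Psmd8 with 24.8% and Psma3 with 18.3% in control 3. Thus 1 to 3 genes supplied most of the sum in each library, and Psme1 led in 1 library of each group.

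Leaving out any 1 of Psma2, Psma3, Psma4, Psmb8, Psme1 and Psme2, which were among the 100 most abundant rows of the table, kept the groups apart, with 2.01% to 3.50% at 8 h and 0.715% to 1.68% in controls. With all 6 left out, the other 42 genes took 1.55%, 0.589% and 1.01% at 8 h and 0.501%, 0.666% and 0.652% in controls, and the groups overlapped. Shares of some marker lists lay apart between the groups as well. The list of natural killer and cytotoxic cells has 6 markers, each with a row. Together they held 0.0297%, 0.0410% and 0.0250% at 8 h and 0.415%, 0.144% and 0.244% in controls. Of these, only Gzma and Klrb1c lay below the controls without overlap, Klrb1c being at 0 in 8 h library 1. Ncr1, with 141, 1 and 10 counts at 8 h and 1, 22 and 76 in controls, had a log2 fold change of 0.64. The 5 myeloid markers held 0.000577% to 0.000996% at 8 h and 0.00167% to 0.00527% in controls, though each of them overlapped. The lists of CD4 T cells (0.429% to 1.38% at 8 h, 0.293% to 1.87% in controls), CD8 T cells and B cells overlapped between groups. Of the 4 B cell markers Ms4a1 did not overlap, with 324, 574 and 207 counts at 8 h and 21, 15 and 30 in controls (log2 fold change 3.55 ± 1.87, SE; edgeR adjusted p = 0.609). Of the myeloid markers, Adgre1 had 0, 88 and 0 counts at 8 h and 331, 1 and 21 in controls. Itgam of the same list had 36, 1 and 7 counts at 8 h and 1, 3 and 1 in controls. Alas2, an erythroid enzyme, had 0, 1 and 0 counts at 8 h and 13, 42 and 17 in controls, while the other erythroid markers overlapped. Their part in the proteasome share was not tested.

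The question of the study's design, which transcripts differ 8 h after transfer, was put to the single genes with edgeR's quasi-likelihood test over all 8308 rows with enough counts. Of the 48 genes 40 could be tested, and 8 had too few counts (Psma1, Psma8, Psmb3, Psmc6, Psmd4, Psmd11, Psme3 and Psme4). None of the 40 passed at an adjusted p under 0.05, and 0.0% of all tested rows did. At an unadjusted p under 0.05 edgeR gave 2 genes, Psma2 and Psmd14, or 5.0% of those tested, against 8.53% of all rows. DESeq2, run as an alternative, called 2 of the 30 genes to which it gave an adjusted p, Psma4 and Psmd14, or 6.67%, against 6.06% of all rows with one. It gave no adjusted p to 10 genes, and to 5 of these, Psma2, Psmb2, Psmb8, Psmc3 and Psmg3, no p at all. All 3 libraries at 8 h lay above all 3 controls for Psma4, Psmb10 and Psmd14, or 7.50% of the 40, against 5.72% of all tested rows. The reverse held for 0 of the 40 and for 5.08% of all rows. These shares of the proteasome genes lie near those of the whole table.

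The fitted log2 fold change (8 h over control) was above 0 for 26 and below 0 for 14 of the 40 tested genes, with a median of 0.50. The median was 0.14 with a replicate block, 0.23 in limma-voom and 0.20 without 8 h replicate 1. Over all tested rows 51.3% lay above 0 and the median was 0.06. Fold changes ran from -2.94 for Psmb9 to 6.64 for Psma2, and edgeR's adjusted p from 0.511 to 0.997. A gene that reached the test through high counts in 1 group had to differ, so these counts describe the list and carry no test.

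**Figure D2:**
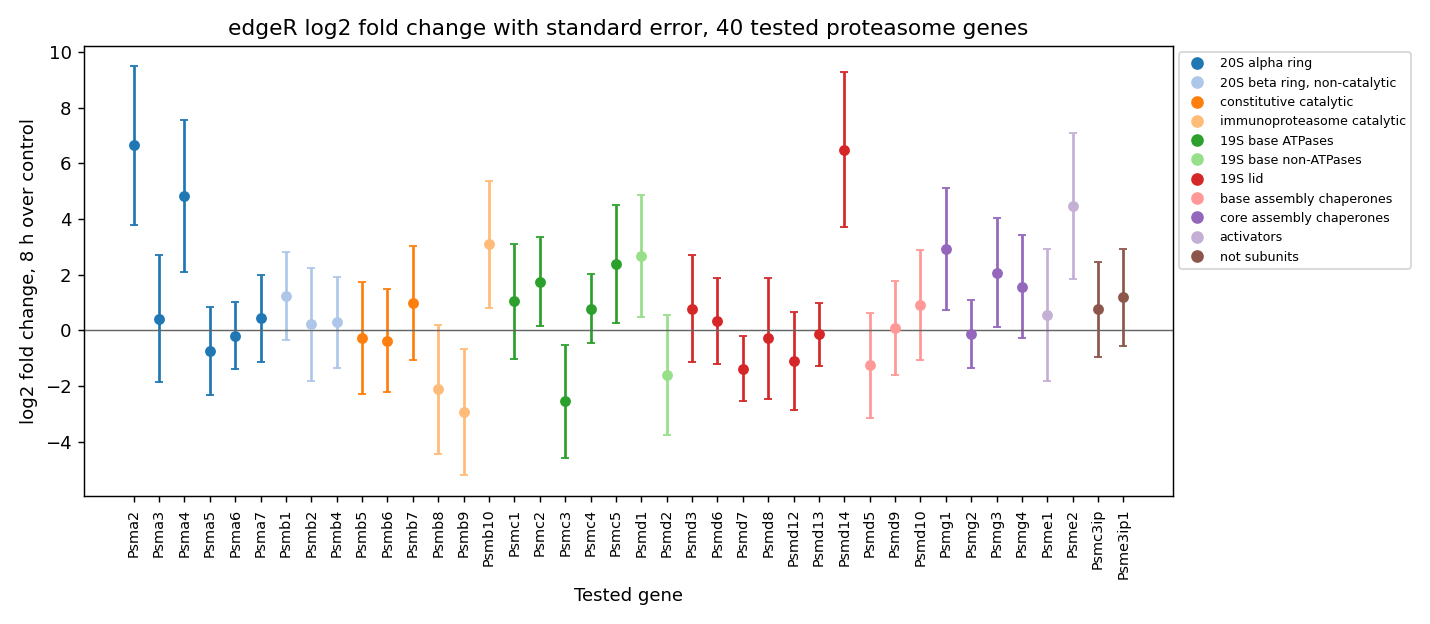
edgeR log2 fold change, 8 h over control (vertical axis), with its standard error for 40 tested proteasome genes, coloured by class and ordered by class. Psma2, Psmd14 and Psma4 stand highest at 6.64, 6.49 and 4.82, and Psmb9 lowest at -2.94, with standard errors of 2.27 to 2.84 for these 4 genes.

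The alpha subunits form the outer rings of the core and its gate. Psma4 (chromosome 9, 54950781 to 54958034, GRCm38) had 8062, 13294 and 1024 CPM in the 8 h libraries, against 276.1, 202.0 and 314.7 CPM in the controls. The controls were close to each other and lay below every 8 h library. The fitted difference was 4.82 ± 2.74 (log2 fold change, SE). Its adjusted p was 0.621 in edgeR and 0.016 in DESeq2.

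Psma2 (chromosome 13, 14613242 to 14625673, GRCm38) had 8904, 272.2 and 28.9 CPM at 8 h and 59.3, 19.8 and 13.7 CPM in controls. Its high mean at 8 h came from library 1, and 8 h library 3 lay below control 1. The log2 fold change was 6.64 ± 2.84 (SE), with an unadjusted p of 0.0195 and an adjusted p of 0.511 in edgeR, and was 2.32 without 8 h replicate 1.

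Psma3 had 56.8, 4586 and 2702 CPM at 8 h and 1770, 15.1 and 3721 CPM in controls, each group holding 1 low library. The other alpha genes were scarce in all libraries. Psma5, Psma6 and Psma7 had 4 to 176 counts at 8 h and 9 to 73 in controls, and Psma1 had 3 to 6 counts at 8 h and 1 to 3 in controls. Psma8, the alpha subunit of the testis-specific proteasome, had 1 to 6 counts at 8 h and 0 to 33 in controls. Per kb of transcript the median level over the 6 libraries ran from 0.200 CPM for Psma8 and 0.363 CPM for Psma1 to 785.7 CPM for Psma3, although subunits of the ring other than Psma8 are built into it in equal number.

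**Figure D3:**
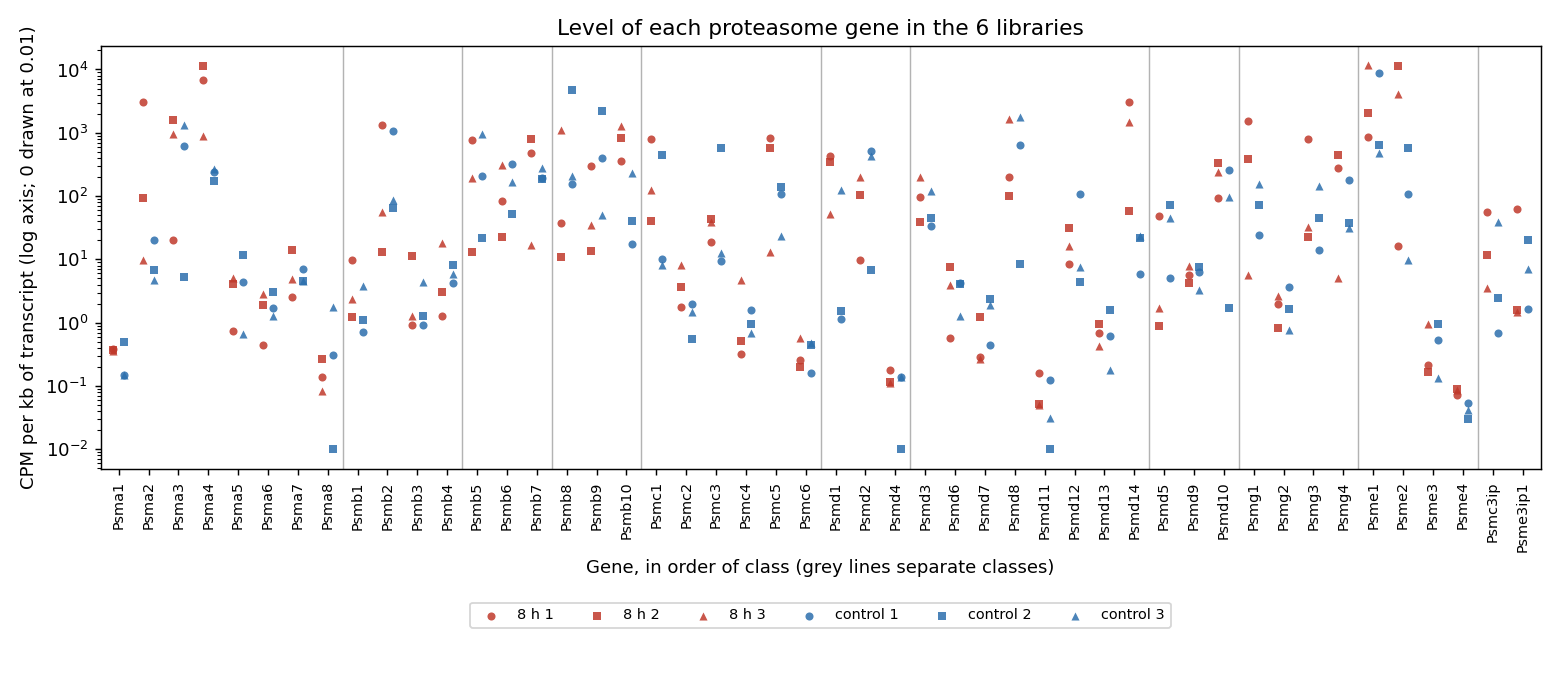
Level of each of the 48 genes in CPM per kb of transcript (vertical log axis, values of 0 drawn at 0.01) in the 8 h libraries and the controls, ordered by class. Median levels within the alpha ring run from 0.200 to 785.7 and within the lid from 0.0510 to 426.7 CPM per kb, and most genes with high levels spread widely in both groups.

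Of the inner ring's non-catalytic subunits, Psmb2 was the most abundant, with 1157, 11.3 and 48.1 CPM at 8 h and 913.1, 55.8 and 75.9 CPM in controls. In both groups library 1 was high and the other two were low. Its log2 fold change was 0.22 ± 2.03 (SE; edgeR adjusted p = 0.986) and was -3.52 without 8 h replicate 1. Psmb4 had 1.5, 3.56 and 21.2 CPM at 8 h and 4.94, 9.59 and 7.01 CPM in controls, the groups overlapping. Psmb1 had 29 to 147 counts at 8 h and 7 to 74 in controls, and Psmb3 6 to 119 and 4 to 37.

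The constitutive catalytic subunits carry the caspase-like (Psmb6), trypsin-like (Psmb7) and chymotrypsin-like (Psmb5) activities. Psmb5 had 679.7, 11.9 and 174.7 CPM at 8 h and 184.5, 19.6 and 857.4 CPM in controls. Psmb6 had 67.2, 18.2 and 249.9 CPM at 8 h and 257.7, 42.1 and 135.4 CPM in controls. Psmb7 had 564.4, 913.2 and 19.9 CPM at 8 h, against 223.3, 217.6 and 325.4 CPM in controls. The groups overlapped for all 3 genes, and library 2 was the lowest of its group for Psmb5 and Psmb6 both at 8 h and in controls. Their log2 fold changes lay between -0.37 and 0.97, with SE of 1.85 to 2.05 and edgeR adjusted p of 0.927 to 0.981. That of Psmb5 was 1.51 without control replicate 3 and -1.94 without 8 h replicate 1, and that of Psmb6 was 0.31 without control replicate 1.

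The inducible catalytic subunits differed among themselves in which group was higher. Psmb10 (chromosome 8, 105935728 to 105938392, GRCm38), the inducible partner of Psmb7, had 463.0, 1077 and 1700 CPM at 8 h, against 23.3, 52.2 and 306.3 CPM in controls. All 8 h libraries were higher than all controls. The log2 fold change of 3.09 ± 2.27 (SE) had an adjusted p of 0.714 in edgeR, and leaving out 1 library gave 2.58 to 4.87.

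Psmb8 (chromosome 17, 34198195 to 34201454), the inducible partner of Psmb5, had 62.1, 17.7 and 1820 CPM at 8 h and 251.0, 7615 and 343.5 CPM in controls. Control 2 stood far above the rest, and 8 h library 3 lay above controls 1 and 3. Psmb9 (chromosome 17, 34182030 to 34187330), the inducible partner of Psmb6, had 397.9, 18.5 and 46.7 CPM at 8 h and 536.2, 2953 and 67.2 CPM in controls, again highest in control 2. Their log2 fold changes were -2.11 ± 2.32 for Psmb8 and -2.94 ± 2.27 for Psmb9 (SE; edgeR adjusted p = 0.829 and 0.733). Without control replicate 2 that of Psmb8 was 1.08 and that of Psmb9 was -0.96.

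The balance of inducible to constitutive catalytic transcripts was read from counts per kb within each library. Psmb10 made up 42.1%, 51.1% and 98.7% of Psmb10 and Psmb7 together in the 8 h libraries, against 8.45%, 17.5% and 45.4% in controls, so that 8 h library 1 fell below control 3. Psmb8 made up 4.81%, 45.2% and 85.2% of its pair with Psmb5 at 8 h and 42.9%, 99.5% and 18.1% in controls. Psmb9 made up 77.7%, 37.4% and 9.93% of its pair with Psmb6 at 8 h and 55.1%, 97.6% and 22.6% in controls. Over all 6 catalytic genes the inducible share was 34.1%, 50.7% and 82.4% at 8 h and 44.1%, 96.3% and 26.0% in controls. The groups overlapped for each pair and for the sum. Within a library the 3 pairs did not keep 1 order: in 8 h library 1 the share was highest for Psmb9, in 8 h library 3 for Psmb10.

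**Figure D4:**
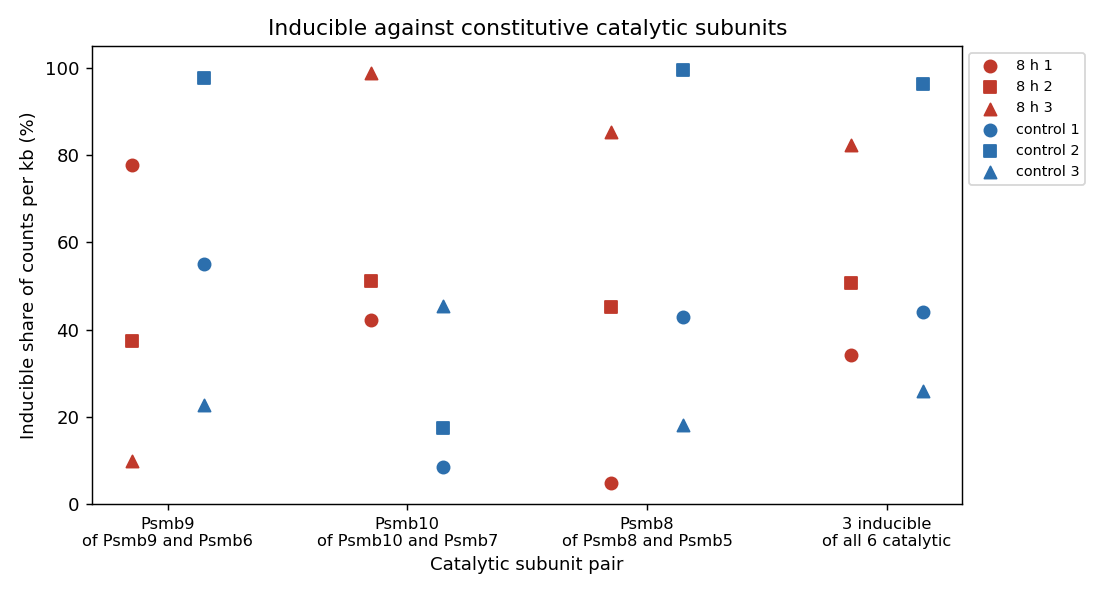
Inducible share of counts per kb of transcript (%, vertical axis) for the 3 catalytic pairs and for all 6 catalytic genes, in the 8 h libraries and the controls. Control 2 lies at 97.6%, 99.5% and 96.3% for Psmb9, Psmb8 and the sum but at 17.5% for Psmb10.

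Psmb9 lies head to head with Tap1, which encodes a chain of the transporter that carries peptides of the proteasome to class I molecules, and the 225 bases between their RefSeq starts are known as a promoter of both genes. They are shown because the paired genes differed widely in level. The stretch is chr17:34187331-34187555 (GRCm38.p6), printed on the Psmb9 strand, with the CCAAT box (CCAAT on either strand, present in 37.4% of all RefSeq promoter windows) in capitals, and below it are 50 bases upstream of Psmb8, chr17:34198085-34198134, plus strand. Capitals there mark a match to the interferon gamma activated site, GAS (TTCNNNGAA, the same on both strands, in 8.30% of all windows).
Psmb9 and Tap1: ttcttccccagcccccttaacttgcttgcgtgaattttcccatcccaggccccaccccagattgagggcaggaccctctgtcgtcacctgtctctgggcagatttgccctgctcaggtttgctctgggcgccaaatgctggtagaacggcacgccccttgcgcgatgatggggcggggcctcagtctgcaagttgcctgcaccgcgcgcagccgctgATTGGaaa
Psmb8: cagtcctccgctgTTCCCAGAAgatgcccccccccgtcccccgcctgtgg

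Tap1 had 7, 11 and 2 counts at 8 h and 0, 3 and 2 counts in controls, while Psmb9 had 3445, 249 and 328 counts at 8 h and 3037, 15091 and 747 in controls. Tap2, the other chain of the transporter and a further neighbour, had 50, 5596 and 17 counts at 8 h and 61, 1409 and 505 in controls, and was highest in 8 h library 2, where Psmb8 and Psmb9 were both at their lowest. Ifng, which encodes interferon gamma, had 405, 428 and 333 counts at 8 h and 5, 8 and 38 in controls, while Irf1, an interferon-induced regulator of these genes, had 2634, 23233 and 798 at 8 h and 55, 2391 and 74 in controls. Ifng lay above every control at 8 h, as Psmb10 did, whereas Psmb8 and Psmb9 had their highest CPM in control 2. Neither Ifng (edgeR adjusted p = 0.538) nor Irf1 (0.801) passed the test.

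**Figure D5:**
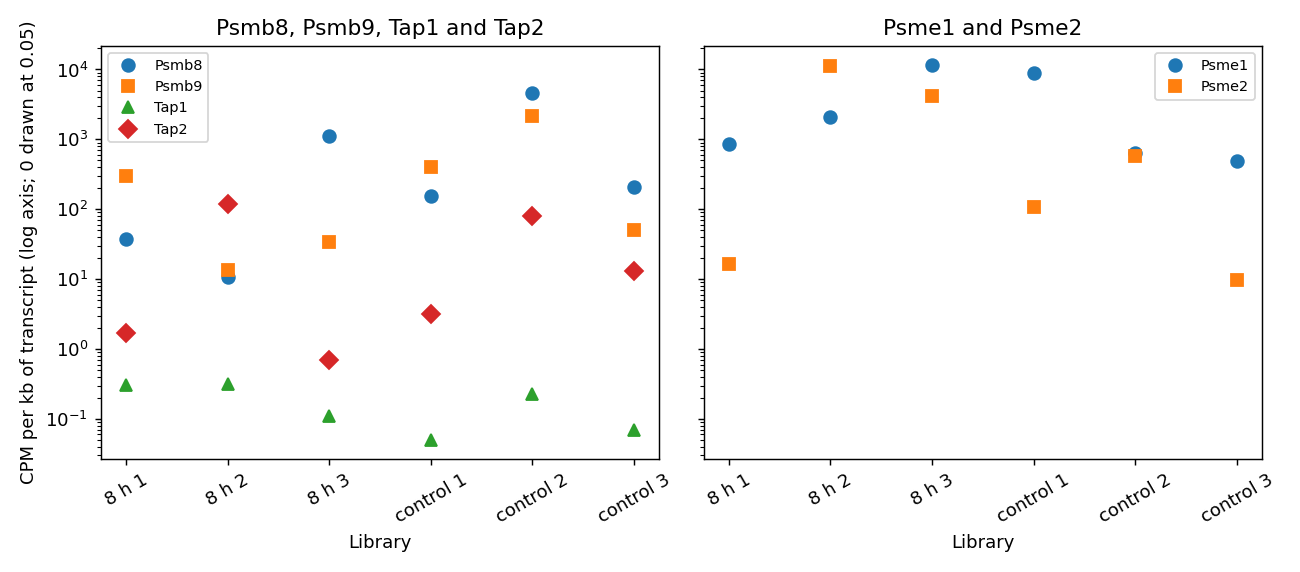
CPM per kb of transcript (vertical log axis, a value of 0 drawn at 0.05) of neighbouring genes of the class I region (left) and of the activator pair Psme1 and Psme2 (right), for the 8 h libraries and then the controls. Tap1 lies far below Psmb9 in each library, and Psme2 exceeds Psme1 only in 8 h library 2.

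The activator subunits Psme1 and Psme2 form PA28, a ring that opens the core without using ATP and is induced by interferon gamma. Psme1 (chromosome 14, 55578494 to 55581527, GRCm38) had 966, 2310 and 13025 CPM at 8 h and 9829, 712.1 and 540.7 CPM in controls, with 1 high library in each group. Psme2 (chromosome 14, 55587440 to 55591101), its neighbour on the chromosome, had 12.9, 9054 and 3310 CPM at 8 h and 84.4, 464.8 and 7.73 CPM in controls. Its 8 h library 1 lay below controls 1 and 2. The log2 fold changes were 0.56 ± 2.36 for Psme1 and 4.48 ± 2.62 for Psme2 (SE; edgeR adjusted p = 0.966 and 0.632), and leaving out 8 h replicate 3 put Psme1 at -1.12, leaving out control replicate 1 at 3.12. Reads of Psme2 and of its copy Psme2b could be mixed, since the sources used here do not describe the counting. Psme3, the nuclear activator, had 5, 6 and 18 counts at 8 h and 8, 13 and 4 in controls, and Psme4, which encodes PA200, 4, 8 and 4 at 8 h and 2, 1 and 3 in controls.

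The ATPases of the base unfold the substrate. Psmc5 had 1071, 768.6 and 17.2 CPM at 8 h and 140.5, 185.9 and 30.8 CPM in controls, with 2 high libraries at 8 h and the other below every control. Psmc1 had 1262, 63.3 and 195.2 CPM at 8 h and 15.9, 711.9 and 13 CPM in controls, and its log2 fold change of 1.04 ± 2.05 (SE) became -0.91 with 8 h replicate 1 left out and 5.12 with control replicate 2 left out. Psmc3 was within 30.7 to 71.7 CPM at 8 h, and controls 1 to 3 stood at 15.7, 937.4 and 20.9 CPM. Psmc2 had 27 to 102 counts at 8 h and 5 to 29 in controls, Psmc4 4 to 48 and 7 to 13, and Psmc6 5 to 9 and 2 to 12. Of these, 4 of the 5 tested ATPase genes had a fold change above 0 and 1, Psmc3, below it (-2.55 ± 2.03, SE), with edgeR adjusted p of 0.744 to 0.919.

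Psmd1 and Psmd2 are the large scaffold subunits of the base. Psmd1 had 1319, 1085 and 163.2 CPM at 8 h and 3.53, 4.70 and 394.3 CPM in controls. Control 3 exceeded 8 h library 3, and without control replicate 3 the log2 fold change of 2.67 ± 2.20 (SE; edgeR adjusted p = 0.750) was 7.72. Psmd2 had 29.5, 313.7 and 591.2 CPM at 8 h and 1545, 20.4 and 1257 CPM in controls, with a log2 fold change of -1.59 ± 2.15 (SE; edgeR adjusted p = 0.864). Psmd4, the ubiquitin receptor of the base, had 1 to 2 counts at 8 h and 0 to 2 in controls.

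In the lid, Psmd14, the enzyme that removes ubiquitin chains from the substrate (chromosome 2, 61711694 to 61800376, GRCm38), had 4653, 88.8 and 2264 CPM at 8 h and 9.0, 33.3 and 35.7 CPM in controls. All 8 h libraries lay above all controls, library 2 by the least. The log2 fold change of 6.49 ± 2.78 (SE) had an unadjusted p of 0.0194 and an adjusted p of 0.511 in edgeR, and an adjusted p of 0.0017 in DESeq2. Leaving out 1 library gave 5.50 to 7.05.

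Psmd8 had 307.1, 154.2 and 2524 CPM at 8 h and 983.3, 12.7 and 2670 CPM in controls, high in library 3 of both groups. Psmd3 had 204.3, 83.9 and 436.1 CPM at 8 h and 72.0, 95.9 and 254.5 CPM in controls, and it spread least of the abundant lid genes. Psmd12 had 140 to 806 counts at 8 h and 43 to 1177 in controls. Psmd6, Psmd7 and Psmd13 had 3 to 141 counts at 8 h and 4 to 34 in controls, and Psmd11 1 to 4 and 0 to 2. Of the 7 tested lid genes 3 had a fold change above 0 and 4 below it, with a median of -0.14.

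The 100 bases upstream of the start of Psma4 and of Psmd14 are shown, as these were the genes called by DESeq2. The table's start for Psma4 lies inside the RefSeq gene span given above, so its stretch overlaps the first bases of the gene. Psma4 is chr9:54950759-54950858 and Psmd14 chr2:61711594-61711693, both on the plus strand of GRCm38.p6, from RefSeq. They were searched on both strands for CCAAT, for GAS, for the antioxidant response element TGACNNNGC, which binds the factor of proteasome genes Nfe2l1 (12.4% of all promoter windows hold it), and for the core of the interferon-stimulated response element (3.44%). None of the 4 motifs lay in these 100 bases, so all letters are small, but the 300-base window of Psmd14 held CCAAT at 3 places outside them, 1 further upstream and 2 just after the start.
Psma4: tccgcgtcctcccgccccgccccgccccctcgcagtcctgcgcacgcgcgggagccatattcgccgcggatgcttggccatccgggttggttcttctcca
Psmd14: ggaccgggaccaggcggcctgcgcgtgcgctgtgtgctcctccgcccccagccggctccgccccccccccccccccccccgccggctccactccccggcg

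RefSeq gave promoter windows of 300 bases (250 before and 50 after a start) for 40 of the 48 genes, 44 windows in all. The antioxidant response element lay in 6 of them (13.6%), among others of Psmb5, Psmb6 and Psmd12, against 12.4% of all windows. The interferon-stimulated core lay in 5 (11.4%), those of Psmb3, Psmd4, Psmd9, Psmg4 and Psme1, against 3.44% of all windows. The CCAAT box lay in 15 (34.1%, against 37.4%) and GAS in 3 (6.82%, against 8.30%), those of Psmb8, Psmd2 and Psmg1. No match was searched outside these windows, and a match does not show that a factor binds.

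Psmd5, Psmd9 and Psmd10 are chaperones that assemble the base. Psmd10 (gankyrin) had 130.6, 470.8 and 333.1 CPM at 8 h and 358.2, 2.35 and 133.8 CPM in controls, low in control 2. Psmd5 had 216.4, 3.86 and 7.40 CPM at 8 h and 22.6, 323.1 and 195.1 CPM in controls, with a log2 fold change of -1.25 ± 1.88 (SE; edgeR adjusted p = 0.886). Psmd9 stood apart by its even level, with 130, 149 and 146 counts at 8 h and 94, 101 and 94 in controls. In CPM its highest library was 1.88 times its lowest at 8 h and 2.34 times in controls. Its log2 fold change was 0.07 ± 1.69 (SE), an SE that draws in part on the spread of other rows.

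The chaperones of core assembly act as the pairs Psmg1 with Psmg2 and Psmg3 with Psmg4. Psmg1 had 1591, 403.9 and 5.97 CPM at 8 h and 25.1, 74.9 and 164.8 CPM in controls, while its partner Psmg2 had 18, 12 and 20 counts at 8 h and 22, 9 and 9 in controls. Psmg3 had 701.8, 19.8 and 28.4 CPM at 8 h and 12.4, 40.3 and 125.8 CPM in controls, and Psmg4 154.1, 248.6 and 2.84 CPM at 8 h and 99.0, 20.5 and 17.5 CPM in controls. Psmg1 and Psmg3 were highest in 8 h library 1, and the groups overlapped for all 4. The log2 fold change of Psmg1 was 2.92 ± 2.18 (SE; edgeR adjusted p = 0.718), and that of Psmg3, 2.07 ± 1.96 (SE), was -1.31 without 8 h replicate 1.

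Psmc3ip, a factor of meiotic recombination in spite of its name, had 71.3, 15.4 and 4.55 CPM at 8 h and 0.883, 3.13 and 50.2 CPM in controls. Psme3ip1, a nuclear partner of Psme3, had 182.6, 4.6 and 4.27 CPM at 8 h and 4.77, 58.7 and 20.6 CPM in controls. For both genes 8 h library 1 was the highest of the 6 libraries and the groups overlapped.

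Since the cells received a miR-155 oligo, each gene's 3' UTR, in its longest form in GENCODE M21, was searched for matches to its seed, bases 2 to 8 of the mature microRNA. The mature sequences are from RefSeq (GRCm38.p6, chromosome 16, plus strand), with the seed in capitals. The sources used here do not say which strand the oligo carried.
mmu-miR-155-5p: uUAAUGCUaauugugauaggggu
mmu-miR-155-3p: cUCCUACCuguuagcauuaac

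A match was AGCATTA or GCATTAA, which together make the 8mer AGCATTAA. It was found in 4 of the 47 proteasome genes with an annotated 3' UTR (8.51%), against 1558 of 12579 genes of the table (12.4%). The sites are shown in the direction of the transcript, with the match in capitals and 11 bases on either side. They lie at chr12:70996301-70996329 (Psma3, plus strand), chr17:15476558-15476587 (Psmb1, minus), chr2:34851382-34851410 (Psmd5, minus) and chr11:30880070-30880098 (Psme4, plus), in GRCm38. Those of Psma3 and Psmd5 lie beyond the gene ends given by RefSeq.
Psma3: ctgggaagtatGCATTAAaaacattcctg
Psmb1: ctcctacatcaAGCATTAAtctggaaaaca
Psmd5: tgcttttcagtAGCATTAtatatgtgtta
Psme4: ctgttgagtttAGCATTAgtagggccatg

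The tested genes with a site had fold changes on both sides of 0. Psmb1, with the 8mer, had 17.0, 2.15 and 4.13 CPM at 8 h and 1.24, 1.96 and 6.65 CPM in controls, with a log2 fold change of 1.23 ± 1.59 (SE; edgeR adjusted p = 0.855). That of Psma3 was 0.42 ± 2.27 (SE; edgeR adjusted p = 0.974) and that of Psmd5, as given above, was -1.25, while Psme4 was not tested. None of the 3 passed. Matches to the seed of the other strand, miR-155-3p, lay in 4 of 47 (8.51%), namely Psma2, Psmc3ip, Psmd12 and Psme3, against 12.6% of genes of the table. The sites of Psma2, Psmc3ip and Psmd12 lie beyond the gene ends given by RefSeq.

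Other genes of the pathway were taken from lists outside the name pattern, and 0 of their tested members passed edgeR's threshold in either direction. Of 9 tested proteasome factors, 5 had higher and 4 lower values at 8 h, with a median log2 fold change of 0.02. Pomp, the chaperone of core maturation, had 107, 3197 and 19294 counts at 8 h and 1881, 403 and 428 in controls, and Nfe2l1, the factor that drives proteasome genes when the protease is impaired, 41, 93 and 351 at 8 h and 496, 89 and 261 in controls. Of 7 tested genes of ubiquitin supply and delivery, 2 had higher and 5 lower values at 8 h. Among them Rps27a, a fusion of ubiquitin and a ribosomal protein, had 9425, 975 and 2357 counts at 8 h and 4881, 49569 and 359185 in controls. Of 3 tested genes of interferon gamma and its regulators, 2 had higher and 1 lower values at 8 h. Of 4 tested genes of class I presentation, 2 had higher and 2 lower values at 8 h. B2m, the light chain of class I molecules, had 10, 14 and 7 counts at 8 h and 148, 42 and 123 in controls, the groups not overlapping (log2 fold change -3.81 ± 1.83, SE; edgeR adjusted p = 0.544).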

How the data were processed

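The deposited data are raw counts, whole numbers of reads for each of 13177 RefSeq accessions in the 6 libraries, in 1 table with 0 columns of other samples. Per the labels, libraries were made with a TruSeq kit. Per the submitters' processing notes, Bowtie, R 3.4.2 and GRCm38 were used, with no role given. The sources used here do not give the counting program, its use of strand, its treatment of reads with several matches or any filter, so genes with close copies, pseudogenes (Psma5, Psmb5, Psmb6, Psmb7) or overlapping neighbours are uncertain.

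Symbols came from a RefSeq table of GRCm38.p6 (12827 rows) or GENCODE M21 (47), and 303 rows stayed unnamed. Transcript lengths for levels per kb are those of the GENCODE transcript of the same accession, found for all 48 rows. Shares of counts use deposited totals, and CPM use TMM-scaled totals. The 8 h libraries were set against the controls in edgeR 4.0.16, run in R 4.3.3 (filterByExpr, TMM, robust quasi-likelihood F test in its older form, two-sided, Benjamini-Hochberg adjustment over 8308 rows, threshold 0.05). SE was taken as the size of the log2 fold change divided by the root of the F statistic. The code was tested on simulated counts.

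Alternatives were RLE and upper-quartile scaling, DESeq2 1.42.0 (local dispersion trend), limma 3.58.1 with voom, the newer quasi-likelihood form, testing all rows, testing rows that averaged 5 CPM or more, a replicate block and leaving out each library. The use of library totals for the count of groups without overlap was added after seeing the data. Genes, lists, motifs and tests were chosen with earlier results of these data known. Values in every library are given for the catalytic and activator genes, the 2 most abundant genes of each class, and genes without overlap or with an unadjusted p under 0.05, 27 in all. Other genes given by library, such as Psmc3, Psmd3, Psmd9, Psmg2, Psmg4 and Psmb1, and the pathway genes named, were picked once their values had been seen. No counting intervals are given, as reads without molecular identifiers are not independent molecules, and low counts limit the precision of the scarce genes.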

Additional observations from a re-analysis of the deposited data

How the results depend on the processing

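The count of genes past the threshold was 0 among all tested rows and among proteasome genes in each edgeR setting and in limma-voom, without each replicate included. DESeq2 called 399 rows and 2 proteasome genes. As no gene passed in edgeR, these counts of 0 say nothing about stability. Deviations from the group means correlated at -0.0107, 0.0151 and -0.0039 between libraries of 1 number. With replicates spread this widely, these values cannot tell if libraries of 1 number were paired. With the replicate block edgeR called 0 rows. The median log2 fold change of the proteasome genes was then 0.14, against 0.50 without the block and 0.23 in limma-voom. That median lay between 0.20 and 0.64 without each replicate, where the median of all rows lay between -0.21 and 0.32. Outside the 100 most abundant rows the difference in share of counts was 0.732 percentage points and the groups overlapped. That setting leaves out 6 proteasome genes and also takes all 100 rows out of the library totals. With library totals, 4 tested genes had groups without overlap, Psmc2 joining the 3. The share of all tested rows with library totals is not given here, so this count has no background beside it. Single genes were recomputed for 26 of the 40 tested. Among these, the replicate block turned the fold change to the other side of 0 for Psma3 (-0.25), Psmb2 (-0.85), Psmb4 (-0.58), Psmd8 (0.43), Psmg3 (-0.01) and Psme3ip1 (-1.32), and in limma-voom for Psmb2 (-0.83), Psmb4 (-0.52), Psmb7 (-0.28), Psmd8 (0.81) and Psme3ip1 (-0.20); the cause was not tested. Leaving out 1 library turned the sign of 13 of the 26 genes, whose values ran from -0.42 to 1.48 for Psma3, -0.08 to 2.29 for Psmb1, -3.52 to 2.59 for Psmb2, -1.46 to 0.79 for Psmb4, -1.94 to 1.51 for Psmb5, -1.75 to 0.31 for Psmb6, -6.06 to 1.08 for Psmb8, -0.91 to 5.12 for Psmc1, -2.41 to 1.01 for Psmd8, -1.31 to 3.27 for Psmg3, -1.12 to 3.12 for Psme1, -0.87 to 3.94 for Psmc3ip and -2.64 to 2.29 for Psme3ip1. Low counts kept 8 of the 48 genes from being tested.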
